A study of Homo sapiens with 12 samples.

Results

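The comparison described here set the knockdown of CARM1, an arginine methyltransferase, against the knockdown of 4 members of the NuRD complex in one human cell line. Its libraries were chosen by the treatment label. The 2 siCARM1 libraries stood on one side, the 8 libraries of siCHD4, siHDAC2, siGATAD2A and siKDM1A on the other, and no siCTL library entered, so 10 of the 12 RNA-seq libraries of the series were used. By the labels the cells were HEK293T of wild-type genotype, which descend from human embryonic kidney cells and carry the SV40 large T antigen, and the study's methods write HEK293. Every one of the 10 libraries came from cells transfected with an siRNA, a short double-stranded RNA that lowers the mRNA it matches, and each group is a knockdown and not a deletion. The labels name no dose or harvest time, and they do not say whether the 2 libraries of a group came from separate transfections, so p-values measure the spread between these libraries, which may be technical. The labels name 2 sequencing providers without tying a library to either, so the provider and the group cannot be told apart.

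CARM1, also called PRMT4, places asymmetric dimethyl groups on arginines of histone H3 and of many other proteins, and is best known as a transcriptional coactivator. NuRD is a chromatin complex that joins a nucleosome remodeller, CHD4, to the histone deacetylases HDAC1 and HDAC2, with GATAD2A or GATAD2B as the link between its parts, and the lysine demethylase KDM1A (LSD1) associates with it. The comparison asks which genes differ after loss of the methyltransferase from their level after loss of these NuRD members.

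Counts of read pairs on genes lay between 20613474 and 28648657 per library (median 24945284) in the 10 libraries, and levels are given as CPM, the count of a gene relative to its library's total, after TMM scaling of all 12 libraries. Calls required both a fold of at least 1.2 and an adjusted p (Benjamini-Hochberg, edgeR's quasi-likelihood test) no larger than 0.05. The 4 NuRD group means had equal weight in the mean on the log2 scale, and 12805 coding genes were tested. Of the HEK293 markers looked at, 9 of 11 passed the filter on low values, and their summed level lay between 1920 and 3150 CPM. The exceptions were NEFM, at 0 to 18 counts a library, and PAX2, at 5 to 55 counts. Among markers of other cells, AGR2 and TFF3 of luminal breast cells had 0 counts in all 12 libraries, and PTPRC and HBB of blood cells had at most 1 count. In RNA from whole cultures, fewer cells expressing a gene and less RNA per cell cannot be told apart.

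CARM1 mRNA (chromosome 19, positions 10982229 to 11033751 on GRCh37) checked the labels. It was at 23.7 and 22.0 CPM in the 2 siCARM1 libraries, at 107 to 147 CPM in the 8 NuRD libraries and at 120 and 118 CPM in siCTL. The siCARM1 libraries were thus the only 2 with a low CARM1 level, 5.63-fold below the NuRD mean (log2 difference -2.49, SE 0.052, edgeR adjusted p = 1.04e-24). The mRNAs of the 4 NuRD targets were measured in the same libraries. HDAC2 was at 38.2 and 38.5 CPM in siHDAC2 and at 192 to 231 CPM elsewhere among the 10 libraries, KDM1A at 27.2 and 27.8 CPM in siKDM1A against 140 to 198 CPM, and GATAD2A at 49.4 and 47.8 CPM in siGATAD2A. Each was therefore lowest in its own knockdown, and HDAC2 and KDM1A were called higher in siCARM1 than the mean, which includes their own knockdown. Without that group their log2 differences were 0.13 and 0.23, under the fold minimum. CHD4 was at 25 and 26.1 CPM in siCHD4, against 28.9 to 39.0 CPM in the other 8, a smaller distance than for the other targets. Its log2 difference between siCARM1 and siCHD4 was 0.22, under the fold minimum, so CHD4 was not called between these 2 groups. Of its exonic bases 46.9% are shared with other annotated genes, and pairs falling there were not counted.

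Against the mean of the 4 NuRD knockdowns, 1319 genes (10.3% of those tested) were lower in siCARM1 and 1499 (11.7%) were higher. Changes were mostly small, with a median fold of 1.33 among the lower genes and 1.31 among the higher genes, and 104 lower and 44 higher genes differed by 2-fold or more. Since 1 strong NuRD knockdown can move the mean, siCARM1 was also compared with each NuRD knockdown in turn. In this stricter count, 245 genes (1.91%) were lower in siCARM1 than in each of the 4, and 160 (1.25%) were higher than in each. These 405 genes were 14.4% of the 2818 called against the mean. The 4 contrasts share the siCARM1 libraries, so an unusual siCARM1 value enters all of them.

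The other calls against the mean rested on part of the NuRD groups. Of the 2818 genes, 889 were called in the same direction against exactly 3 NuRD knockdowns, 1188 against 2 and 335 against 1, and 1 against none singly. Among the 335, siCHD4 was the group concerned for 239. A further split in direction was seen for 154 of the 2818 genes, which were called in the opposite direction against at least 1 NuRD knockdown. Without any model, both siCARM1 libraries lay below all 8 NuRD libraries for 1046 genes (8.17%) and above all 8 for 1108 genes (8.65%). All 245 and all 160 genes apart from each knockdown were among these.

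**Figure D1:**
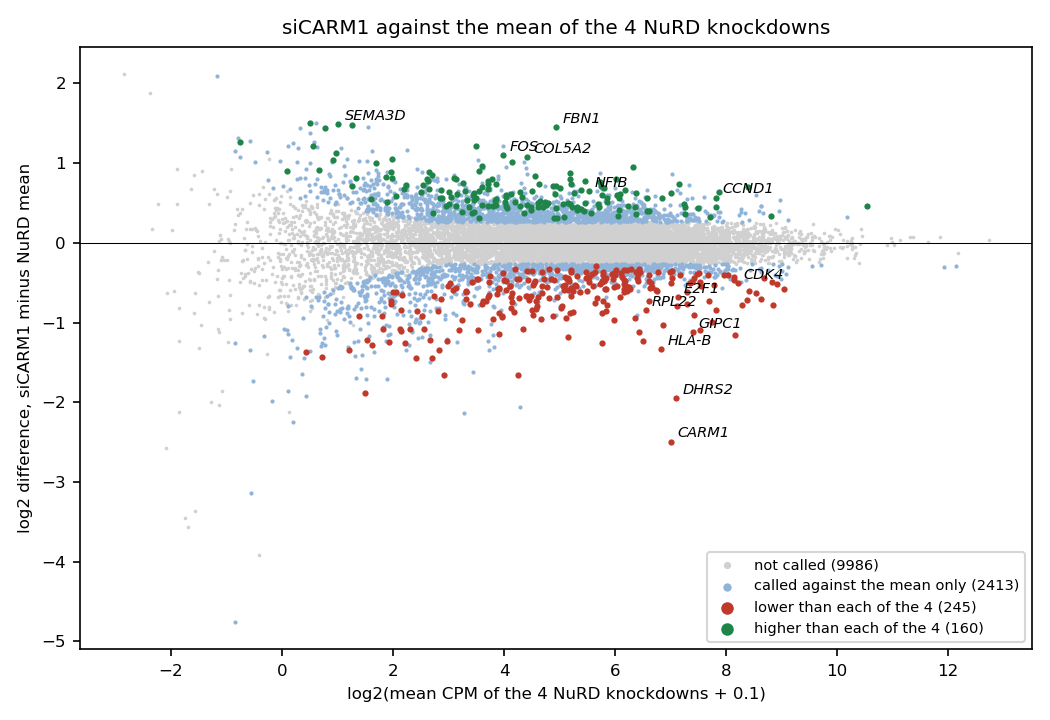
Log2 difference of siCARM1 from the mean of the 4 NuRD knockdowns (vertical axis) against the level in the NuRD knockdowns, log2(mean CPM + 0.1), for 12805 tested coding genes. Red and green points are the 245 genes lower and the 160 higher than in each of the 4, and CARM1 and DHRS2 lie lowest among the labelled genes.

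The distance of siCARM1 from the NuRD knockdowns was also set against the distances within NuRD. Between siCARM1 and siHDAC2, 19.2% of tested genes were called, and between siCARM1 and siKDM1A 21%. The shares were 33.9% for siGATAD2A and 47.7% for siCHD4. Within NuRD, the share went from 14.3% between siHDAC2 and siKDM1A to 48.8% between siCHD4 and siHDAC2. The shares for siCARM1 lay within that range. siHDAC2 and siKDM1A each differed from siCARM1 at more genes than from each other, and siGATAD2A differed from siCARM1 at more genes than from siHDAC2 (29.6%) or siKDM1A (32.2%). siCHD4 differed from every other group at 44.9% of genes or more. By the same rule of standing apart from each of the other 4 groups in 1 direction, siCARM1 had 405 genes (3.16%), siCHD4 2914 (22.8%), siGATAD2A 890 (6.95%), siKDM1A 348 (2.72%) and siHDAC2 229 (1.79%). siCHD4 and siGATAD2A therefore had more such genes than siCARM1, and siKDM1A and siHDAC2 had fewer.

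**Figure D2:**
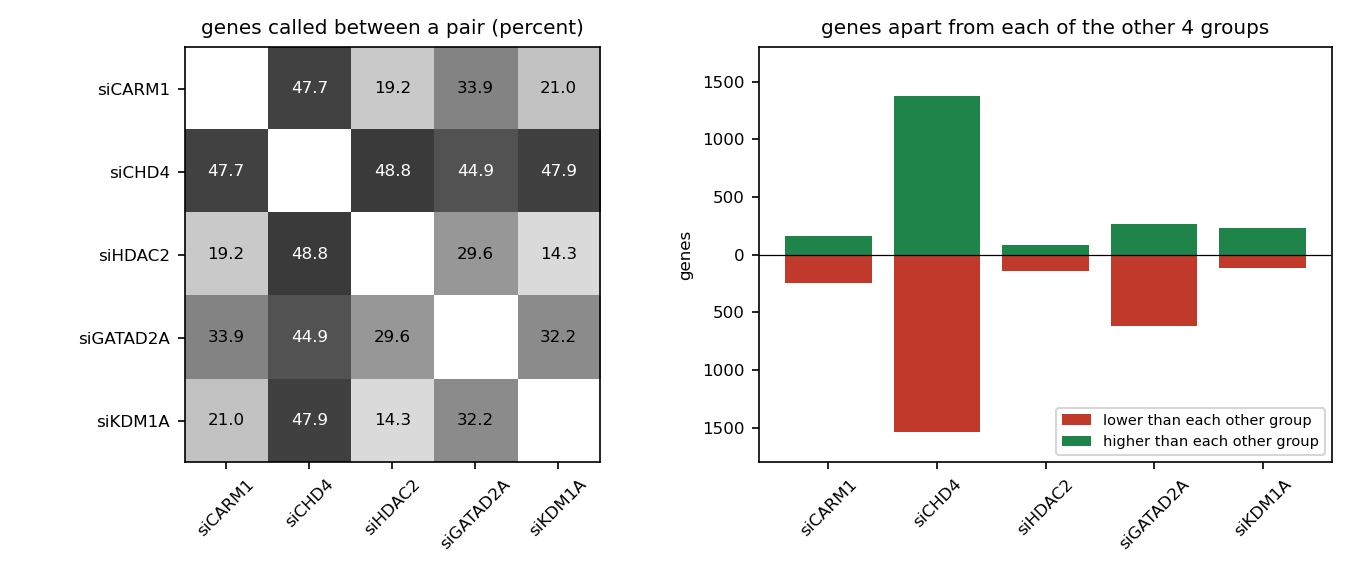
Left, percent of 12805 tested genes called between each pair of knockdowns. Right, number of genes lower (down) or higher (up) in 1 knockdown than in each of the other 4, with 405 genes for siCARM1 and 2914 for siCHD4.

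siCTL served as a reference level only, with no test. Of the 245 genes lower in siCARM1 than in each NuRD knockdown, the siCTL mean lay within the range of the 4 NuRD means for 117 (47.8%), past that range on the side away from siCARM1 for 41, between the range and siCARM1 for 74 (30.2%), and at or past the siCARM1 level for 13 (5.31%). Among all tested genes with a negative difference, siCTL was within the NuRD range for 61%, between that range and siCARM1 for 5.06% and at or past siCARM1 for 18.5%. Of the 160 higher genes, the numbers in the same order were 65 (40.6%), 28, 54 (33.8%) and 13 (8.12%). Among all tested genes with a positive difference, the shares within the range, between and at or past siCARM1 were 62.2%, 5.53% and 18.6%. siCTL was nearer to the NuRD mean than to siCARM1 for 191 of the lower genes (78.0%) and 105 of the higher genes (65.6%), against 56.3% of all tested genes. The lower and higher genes were picked with siCARM1 outside the NuRD range, which by itself moves these shares. All tested genes are therefore no like reference, and no conclusion is drawn from the contrast.

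The cell cycle genes of the study included 2 that differed from each NuRD knockdown. Of 18 genes, those with primers in the study together with E2F8, 3 (16.7%, against 10.3% of all tested genes) were lower and 3 (16.7%, against 11.7%) higher than the mean, and E2F1 and CDK4 were lower than in each of the 4 (11.1%, against 1.91%). The study picked cell cycle genes from these same libraries, so their direction is no independent evidence. CDK4 encodes the kinase that with D-type cyclins starts the phosphorylation of RB in G1. It was at 209 and 209 CPM in siCARM1, at 304 and 300 in siCHD4, at 298 and 310 in siHDAC2, at 290 and 292 in siGATAD2A, at 294 and 272 in siKDM1A and at 300 and 303 CPM in siCTL. Both siCARM1 libraries were low and the other 10 formed 1 narrow band. The log2 difference of CDK4 was -0.50 (SE 0.034, edgeR adjusted p = 8.86e-13), and the largest adjusted p over the 4 pairwise contrasts was 1.25e-09.

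E2F1, a transcription factor that activates genes of S phase entry when released from RB, was at 87.9 and 83.5 CPM in siCARM1. It was at 110 and 114 CPM in siKDM1A, the lowest NuRD group, at 124 to 138 CPM in siCHD4 and siHDAC2 and at 189 and 185 CPM in siGATAD2A. The siCARM1 libraries lay below all others, siCTL (126 and 134 CPM) included, and the NuRD groups themselves were spread (log2 difference -0.68, SE 0.043, adjusted p = 2.73e-13). Some of the remaining genes of the 18 were called against the mean only. MCM8, a helicase of DNA repair, was lower than the mean (log2 difference -0.30, SE 0.059), and the checkpoint kinase ATR (0.38, SE 0.043), the calcineurin subunit PPP3CA (0.27, SE 0.044) and the centrosomal protein NEDD1 (0.28, SE 0.057) were higher than the mean. The differences of MCM8, PPP3CA and NEDD1 were -0.24, 0.20 and 0.11 without siCHD4, and -0.26, 0.25 and 0.18 without siCARM1 replicate 2, under the fold minimum (0.26 on the log2 scale) in each case. PPP3CA was also under it without siCHD4 replicate 1 (0.25), and NEDD1 without siHDAC2 replicate 2 (0.26). The other 12, among them CDC20, AURKA, CDC25A and CDC25C, were not called. CHEK1, E2F2 and CDCA5 were called lower once siCHD4 was left out, with log2 differences of -0.31, -0.26 and -0.31. Without siGATAD2A, CDK6 (0.33) and CDC25B (-0.29) were called, and CDKN2C, at 0.26 in the full comparison, was called in several alternatives, among them those without siHDAC2 (0.36), without siCARM1 replicate 1 (0.30) and with offsets for GC content (0.34). CHEK1 (-0.31) and CDCA5 (-0.27) were also called without siCARM1 replicate 2.

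The promoters of the 2 called cell cycle genes are shown so that the sequence behind these values can be read. They cover 250 bases before to 50 after the start in RefSeq on GRCh38.p14, written 5′ to 3′ on the strand of the gene. The CDK4 promoter (chr12:57752261-57752560, minus strand) has the E-box CACGTG in capitals, found 3 times, and the E2F1 promoter (chr20:33686336-33686635, minus strand) has in capitals the single match to an E2F motif, searched as TTTGGCGC, TTTCGCGC or TTTCCCGC on both strands.
CDK4: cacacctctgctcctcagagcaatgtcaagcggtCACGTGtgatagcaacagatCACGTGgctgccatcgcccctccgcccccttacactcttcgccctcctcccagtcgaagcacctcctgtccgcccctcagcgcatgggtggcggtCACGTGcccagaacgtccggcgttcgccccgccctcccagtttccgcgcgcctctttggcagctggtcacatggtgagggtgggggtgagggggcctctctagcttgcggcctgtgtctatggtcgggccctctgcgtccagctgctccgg
E2F1: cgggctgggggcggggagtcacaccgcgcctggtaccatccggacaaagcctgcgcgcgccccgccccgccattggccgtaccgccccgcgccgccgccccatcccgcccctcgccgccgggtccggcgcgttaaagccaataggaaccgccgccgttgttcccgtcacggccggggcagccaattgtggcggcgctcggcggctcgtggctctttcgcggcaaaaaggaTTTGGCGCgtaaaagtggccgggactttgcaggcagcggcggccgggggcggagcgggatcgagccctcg
Promoter sequences were matched by symbol for 10379 of the 12805 tested genes, for 190 of the 245 lower genes and for 123 of the 160 higher genes. An E-box was in 14.2% of the promoters of the lower genes, 4.88% of those of the higher genes and 10.2% of all. One of the E2F forms was in 5.26%, 1.63% and 4.72% in the same order. The ETS motif CCGGAAG was in 19.5%, 6.50% and 19%, and the SP/KLF motif GGGCGG in 72.1%, 70.7% and 71.6%. These are counts of letters in a window and say nothing of binding.

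Other regulators of G1 split in both directions. Of 35 tested genes of G1 control, 6 (17.1%, against 10.3% of all tested genes) were lower and 9 (25.7%, against 11.7%) higher than the mean, with a median log2 difference of 0.041 against 0.0091 for all tested genes. CCNE1, the cyclin E partner of CDK2, was lower than in each NuRD knockdown, at 22.0 and 22.6 CPM against 29.8 to 40.1 CPM (log2 difference -0.60, SE 0.060, adjusted p = 3.63e-09). CCND1, the cyclin D1 partner of CDK4, was higher than in each, at 335 and 332 CPM against 184 to 260 CPM (log2 difference 0.57, SE 0.031, adjusted p = 7.64e-15). siCTL had 300 and 305 CPM of CCND1, nearer to siCARM1 than any NuRD library was. CCNE2 and CCND2 were higher than the mean by 0.42 and 0.47 on the log2 scale, and CCND3 and the CDK inhibitor CDKN1A differed by -0.39 and -0.38, without holding against each knockdown. The kinase CDK6, at 151 and 161 CPM in siCARM1 against 111 to 173 CPM, was not called with all 4 groups.

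Genes of later phases were mostly near 0. Among 43 genes of S phase, 2 (4.65%) were lower and 4 (9.30%) higher than the mean, shares below those of all tested genes, and RAD51AP1, a factor of repair by homologous recombination, was the only member apart from each knockdown, at 35.4 and 39.8 CPM against 48.5 to 62.1 CPM (log2 difference -0.58, SE 0.056, adjusted p = 1.28e-09). Among 53 genes of G2 and M phase, 5 (9.43%) were lower, a share close to the 10.3% of all tested genes. By edgeR and by DESeq2 0 were called higher, and 12 were higher at an unadjusted p under 0.05. UBE2C, the ubiquitin-conjugating enzyme of the anaphase-promoting complex, was lower than in each knockdown, at 63.4 and 62.1 CPM against 74.9 to 85.6 CPM (log2 difference -0.32, SE 0.042, adjusted p = 3.66e-07). From siCHD4 it differed by -0.276, near the fold minimum of 0.263 on the log2 scale. The medians of both lists, 0.055 and -0.012, were close to 0.

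**Figure D3:**
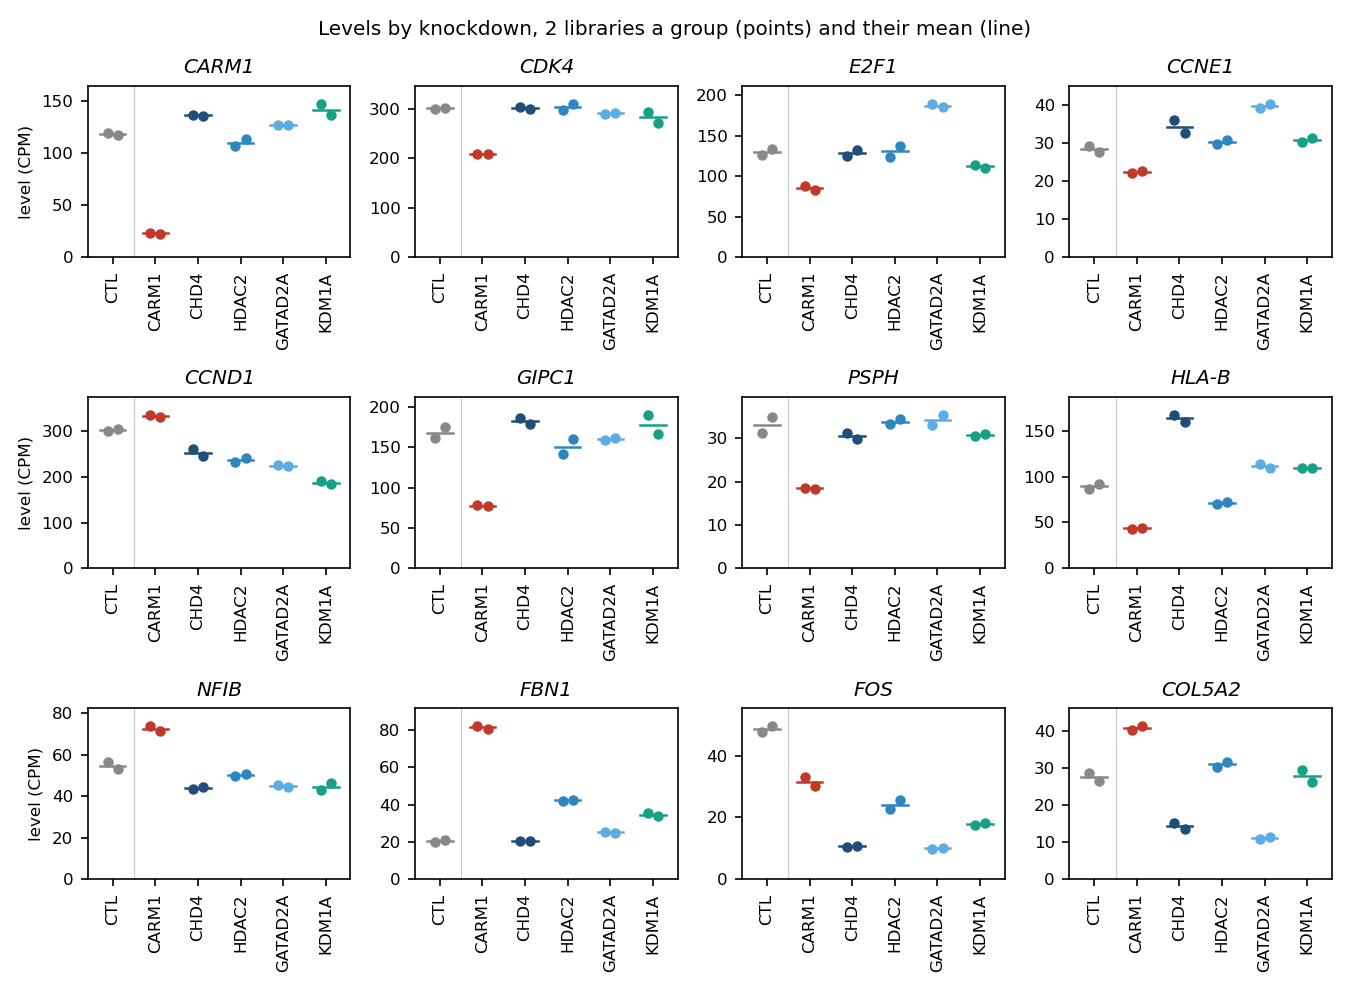
Level in CPM of 12 genes in 6 groups, 2 libraries each (points) with their mean (line), every axis starting at 0. CARM1, CDK4, E2F1, CCNE1, GIPC1, PSPH and HLA-B are lowest in siCARM1, CCND1, NFIB, FBN1 and COL5A2 are highest in it, and FOS is highest in siCTL.

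The genes with the largest differences from the mean, among those apart from each of the 4, were often set by the spread of the NuRD groups as well. DHRS2, a mitochondrial dehydrogenase, had the largest negative difference after CARM1. It was at 25.9 and 25.1 CPM in siCARM1, at 47.1 to 85.5 CPM in siHDAC2, siGATAD2A and siKDM1A, and at 359 and 350 CPM in siCHD4. siCTL was at 59.7 and 58.3 CPM, so the siCARM1 libraries were lowest and the siCHD4 libraries far above the rest (log2 difference -1.94, SE 0.050, adjusted p = 1.89e-22). HLA-B, a class I antigen-presenting molecule, was at 43.0 and 44.4 CPM against 69.7 to 167 CPM (log2 difference -1.33, SE 0.045, adjusted p = 1.14e-19). With 30.7% of its exonic bases shared with other genes and near-identical class I relatives, its level is uncertain. ITPK1, an inositol phosphate kinase, was at 24.2 and 21.2 CPM against 45.8 to 62.2 CPM (log2 difference -1.25, SE 0.059, adjusted p = 3.29e-16). The NuRD group means of ITPK1 ran from 47.3 CPM in siKDM1A to 62.2 CPM in siCHD4.

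Weakly expressed genes followed among the lower genes taken by size. They included FLRT1, ELFN1, ONECUT3, RPL3L, FTCD, NTNG2, RAX and ACHE, with log2 differences between -1.88 and -1.26 and at most 2.98 CPM in siCARM1. ONECUT3, a homeobox factor, was at 1.83 and 1.57 CPM in siCARM1 and at 2.56 to 10.1 CPM in the NuRD libraries. Its siCTL libraries, at 0.514 and 0.736 CPM, lay below siCARM1. For FLRT1, a membrane protein whose exons are shared for 15.6% of their bases, the log2 difference was -0.093 when counts were taken without regard to strand.

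Of the 12 highest genes, FBN1 had the highest counts. It encodes fibrillin-1, the main protein of extracellular microfibrils, and was at 81.9 and 80.7 CPM in siCARM1. The NuRD libraries had 20.5 to 42.6 CPM, with siHDAC2 highest among them, and siCTL had 19.95 and 20.79 CPM. The groups did not overlap, and siCARM1 stood 2.75-fold above the NuRD mean (log2 difference 1.46, SE 0.044, adjusted p = 9.96e-21). SEMA3D, a secreted guidance semaphorin, was at 4.95 and 5.93 CPM against 1.61 to 2.28 CPM (log2 difference 1.49, SE 0.149, adjusted p = 3.19e-09). Its siCTL level of 1.65 and 1.34 CPM was on the side of the NuRD libraries. The others were ANKRD63, SUSD2, FSCN2, SHISA3, FOSB, IL17RE, FOS, COL5A2, COL4A3 and ZCWPW1, with log2 differences between 1.04 and 1.5. For SUSD2, siCTL was at 6.94 and 7.41 CPM, above the 5.96 and 6.33 CPM of siCARM1.

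A further set was picked after the values were seen, to describe genes for which siCARM1 alone differed. In 83 of the 245 lower genes (33.9%) and 31 of the 160 higher genes (19.4%), the siCTL mean and the 4 NuRD means lay within 1.25-fold of each other, against 26.5% of all tested genes. With a level of at least 10 CPM in the mean of those 5 groups, 81 lower and 27 higher genes remained. The 10 with the largest difference in each direction are named here. GIPC1, a scaffold of receptor trafficking, was at 78.2 and 76.7 CPM in siCARM1 and at 142 to 190 CPM in the 8 NuRD libraries (log2 difference -1.12, SE 0.048, adjusted p = 3.43e-17). SNX12, a sorting nexin of endosomes, was at 40.0 and 40.1 CPM against 82.5 to 92.1 CPM (log2 difference -1.11, SE 0.046, adjusted p = 1.26e-17). Neither gene overlapped between siCARM1 and any other library.

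The other lower genes of this set came from unlike functions. EID1, an inhibitor of the acetyltransferase p300, was at 31.8 and 33.2 CPM against 57.2 to 74.7 CPM. VAC14, the scaffold of the kinase complex that makes phosphatidylinositol 3,5-bisphosphate, was at 43.3 and 42.4 CPM against 70.4 to 89.9 CPM. PSPH, the last enzyme of serine synthesis, was at 18.6 and 18.3 CPM against 30.0 to 35.3 CPM (log2 difference -0.81, SE 0.062, adjusted p = 1.13e-11). FBXO33, NENF, CAAP1, CACNA1G and TWSG1 completed the 10, with log2 differences between -1.08 and -0.86. For CACNA1G, a T-type calcium channel, the siCARM1 libraries differed from each other, at 9.08 and 6.87 CPM, as they did for TWSG1 at 27.9 and 35.8 CPM.

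The higher genes of this set had smaller differences. NFIB, a transcription factor in the list of CARM1 partners and substrates, was at 73.6 and 71.4 CPM in siCARM1, at 43.1 to 50.8 CPM in the NuRD libraries and at 56.2 and 53.01 CPM in siCTL (log2 difference 0.65, SE 0.044, adjusted p = 9.61e-13). KIT, a receptor tyrosine kinase, was at 25.7 and 27.9 CPM against 15.6 to 18.95 CPM (log2 difference 0.61, SE 0.069, adjusted p = 2.83e-08). Its ligand KITLG was also higher than in each NuRD knockdown, at 34.3 and 37.3 CPM against 22.1 to 29.1 CPM (log2 difference 0.53, SE 0.057, adjusted p = 1.07e-08). The smallest pairwise difference of KITLG, from siHDAC2, was 0.291, near the fold minimum of 0.263 on the log2 scale. CBY1, TSPO, SMAD9, NTN4, EPHA4, GLRB, MT-ND3 and TNS3 followed, between 0.45 and 0.53. Of 26 tested partners and substrates of CARM1, NFIB was the only one apart from each knockdown, 1 was lower than the mean (TFEB, -0.32) and the median was 0.0012.

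**Figure D4:**
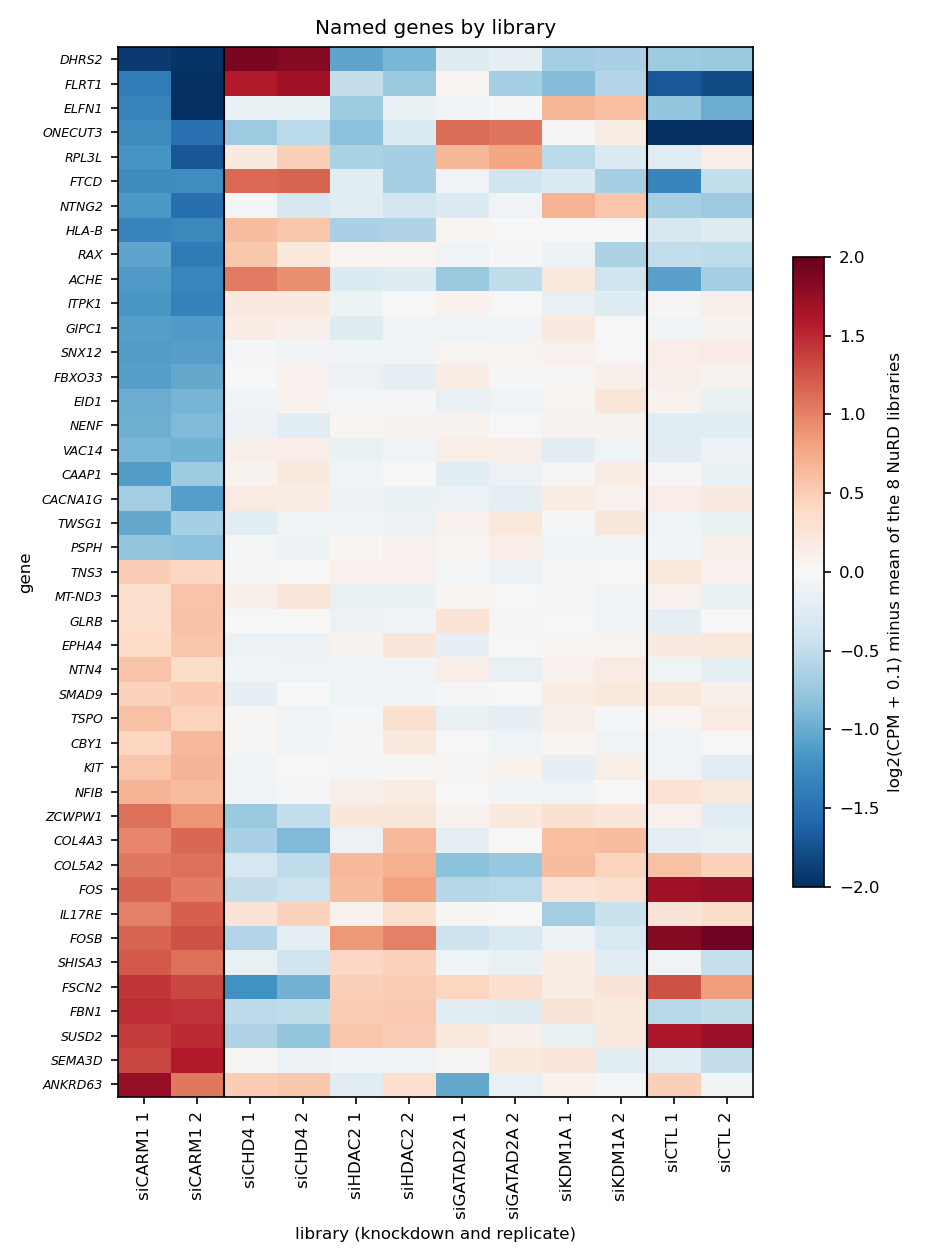
Levels of genes with the largest differences and of the 20 genes for which siCTL and the NuRD groups lay close together, as log2(CPM + 0.1) minus the mean of the 8 NuRD libraries, with a colour scale from -2 to 2. Rows are sorted by the log2 difference from DHRS2 to ANKRD63, and the siCHD4 columns depart most from the other NuRD columns.

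Genes of the extracellular matrix and its receptors were more often higher in siCARM1. Of 41 tested collagens, laminins and integrins with fibronectin, 20 (48.8%, against 11.7% of all tested genes) were higher than the mean and 4 (9.76%) were lower, with a median log2 difference of 0.21. COL5A2, COL4A3, COL4A4, COL9A3, ITGA1, LAMA1 and COL4A2 were higher than in each NuRD knockdown, 7 in all (17.1%, against 1.25%). This number was 5 without siCARM1 replicate 1 and 4 without siCARM1 replicate 2. COL5A2, a fibrillar collagen chain, was at 40.2 and 41.4 CPM against 30.3 and 31.8 CPM in siHDAC2, 29.5 and 26.4 in siKDM1A, 15.3 and 13.5 in siCHD4 and 10.9 and 11.3 CPM in siGATAD2A. The chain was highest in siCARM1, and siCTL, at 28.8 and 26.7 CPM, lay among the NuRD libraries (log2 difference 1.07, SE 0.059, adjusted p = 1.04e-14).

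The basement membrane collagens COL4A3 and COL4A4, which lie next to each other in opposite orientation, were at 7.14 and 7.99 CPM against 1.88 to 5.66 CPM, and at 23.1 and 23.4 CPM against 10.4 to 18.2 CPM. COL4A2, the most strongly counted of the 7, was at 272 and 253 CPM against 195 to 219 CPM (log2 difference 0.32, SE 0.034, adjusted p = 1.03e-08). ITGA1, the collagen-binding integrin chain, was at 45.7 and 50.2 CPM against 25.3 to 36.4 CPM, and LAMA1, a laminin chain, at 69.4 and 75.5 CPM against 41.3 to 60.5 CPM. Other members were called through part of the groups. COL3A1, higher than the mean by 0.94 on the log2 scale, differed from siHDAC2 by 0.09 and from siKDM1A by -0.05. COL7A1, with a difference from the mean of -0.88, was the lowest of the list. Of the 4 tested fibroblast markers, 2 of which are collagens of this list (COL1A1 and COL3A1), COL3A1 and LUM (50%) were higher than the mean, and the median log2 difference was 0.29. The summed level of the 6 markers looked at was 101 to 105 CPM in siCARM1, 92.4 to 95.3 in siCHD4, 103 to 110 in siHDAC2, 82.8 to 86 in siGATAD2A, 135 to 153 in siKDM1A and 123 to 124 CPM in siCTL. DCN had 2 counts at most and COL1A2 32 counts at most in a library, and the part of such cells in the collagen result was not tested.

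Immediate early genes, which respond within minutes to growth signals, were called in both directions. Of 28 tested genes of AP-1 and the immediate early response, 8 (28.6%, against 11.7% of all tested genes) were higher and 5 (17.9%, against 10.3%) lower than the mean, with a median of 0.17. Without siCHD4, edgeR called 10 higher and 0 lower than the mean (2 lower at an unadjusted p under 0.05). Of the 28, 7 were then higher than in each of the other 3 NuRD knockdowns. Among all 12805 tested genes, 1303 were higher and 1194 lower than the mean in that setting, and 302 higher than in each. In the full comparison FOS, FOSB and EGR1 were higher than in each NuRD knockdown (10.7%, against 1.25% of all tested genes). DESeq2 called 2 members of the list higher than in each. FOS was at 33.2 and 30.1 CPM in siCARM1, at 22.7 and 25.7 in siHDAC2, at 17.7 and 18.3 in siKDM1A, at 10.6 and 10.9 in siCHD4, at 9.91 and 10.0 in siGATAD2A and at 47.6 and 49.5 CPM in siCTL. siCARM1 thus lay between siCTL and every NuRD library (log2 difference 1.10, SE 0.065, adjusted p = 6.00e-14). FOSB, at 23.2 and 25.1 CPM, had the same order, with siCTL at 36.9 and 40.0 CPM and the NuRD libraries at 6.87 to 20.8 CPM (1.21, SE 0.081, adjusted p = 8.65e-13). The smallest pairwise difference of FOSB, from siHDAC2, was 0.267 (edgeR adjusted p = 0.0384), barely above the fold minimum of 0.263 on the log2 scale. That of EGR1, from siKDM1A, was 0.288, also near the minimum.

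EGR1, a zinc finger factor, was at 83.1 and 79.5 CPM in siCARM1 and at 42.5 to 68.2 CPM in the NuRD libraries, while siCTL had 91.2 and 84.8 CPM (log2 difference 0.60, SE 0.042, adjusted p = 1.87e-12). Its promoter (chr5:138465229-138465528, plus strand, same source and extent as above) is shown because it holds 2 matches to the CArG box, in capitals. The CArG box is the core of the serum response element. It was in 0.813% of the promoters of genes higher than in each knockdown and 1.05% of those of the lower genes. Of all promoters searched, 1.08% had it.
EGR1: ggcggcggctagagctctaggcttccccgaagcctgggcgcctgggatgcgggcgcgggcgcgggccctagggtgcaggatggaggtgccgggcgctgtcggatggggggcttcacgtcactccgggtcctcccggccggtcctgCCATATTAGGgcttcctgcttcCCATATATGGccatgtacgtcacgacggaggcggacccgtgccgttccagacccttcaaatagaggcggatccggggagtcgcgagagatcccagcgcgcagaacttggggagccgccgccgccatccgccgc
No match to this motif was found in the same window of FOS or FOSB. JUN was higher than the mean by 0.45 on the log2 scale but differed from siCHD4 by 0.04, and FOSL1, at -0.62, differed from siCHD4 by -2.21 and from the other 3 by -0.24 to 0.05. The calls of JUN and FOSL1 therefore rested on part of the groups.

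Genes of the integrated stress and unfolded protein response leaned the other way. Of 34 tested members, 11 (32.4%, against 10.3% of all tested genes) were lower and 2 (5.88%, against 11.7%) higher than the mean. A negative difference was seen in 30 of the 34, against 6185 of all 12805 tested genes, and the median was -0.14. The number of lower members was 7 both without siCHD4 and with loess offsets for GC content. Of all 12805 tested genes, 1194 and 1182 were lower in these 2 settings. PSPH and SDF2L1, an endoplasmic reticulum chaperone component, were lower than in each NuRD knockdown (5.88%, against 1.91%). SDF2L1 was at 17.01 and 18.6 CPM against 20.8 to 24.5 CPM (log2 difference -0.35, SE 0.072, adjusted p = 1.75e-04). ATF4, the central transcription factor of the response, was lower than the mean by a log2 difference of -0.34, but differed from siHDAC2 by 0.05 and from siKDM1A by -0.06. Its NuRD mean was set by siCHD4 (344 and 349 CPM) and siGATAD2A (357 and 353 CPM), with siCARM1 at 228 and 217 CPM and siCTL at 174 and 184 CPM.

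Interferon-stimulated genes were higher than the mean in 12 of 33 tested cases (36.4%, against 11.7% of all tested genes) and lower in 4 (12.1%, against 10.3%), with a median of 0.25, and 0 were called higher than in each knockdown by edgeR or DESeq2, with 1 at an unadjusted p under 0.05 in all 4 contrasts. IFIT1, for example, was at 6.61 and 7.86 CPM in siCARM1, at 2.81 and 3.11 CPM in siCHD4 and at 8.84 and 7.73 CPM in siHDAC2. PLSCR1, a phospholipid scramblase, went against the list and was lower than in each, at 18.9 and 23.3 CPM against 24.3 to 32.8 CPM (log2 difference -0.45, SE 0.071, adjusted p = 7.27e-06). From siGATAD2A it differed by -0.276, near the fold minimum of 0.263 on the log2 scale. Germline genes had the lowest median, -0.64 over 11 tested members. Of these, 4 (36.4%, against 10.3% of all tested genes) were lower and 2 (18.2%, against 11.7%) higher than the mean. Without siCHD4, 1 was lower and 1 higher (1194 and 1303 of all 12805 tested genes), and the median was 0.081. MAGEC1 was at 22.4 and 20.4 CPM in siCHD4, at 0.359 and 0.853 CPM in siCARM1 and at 0.290 to 0.533 CPM in the other 6 NuRD libraries.

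**Figure D5:**
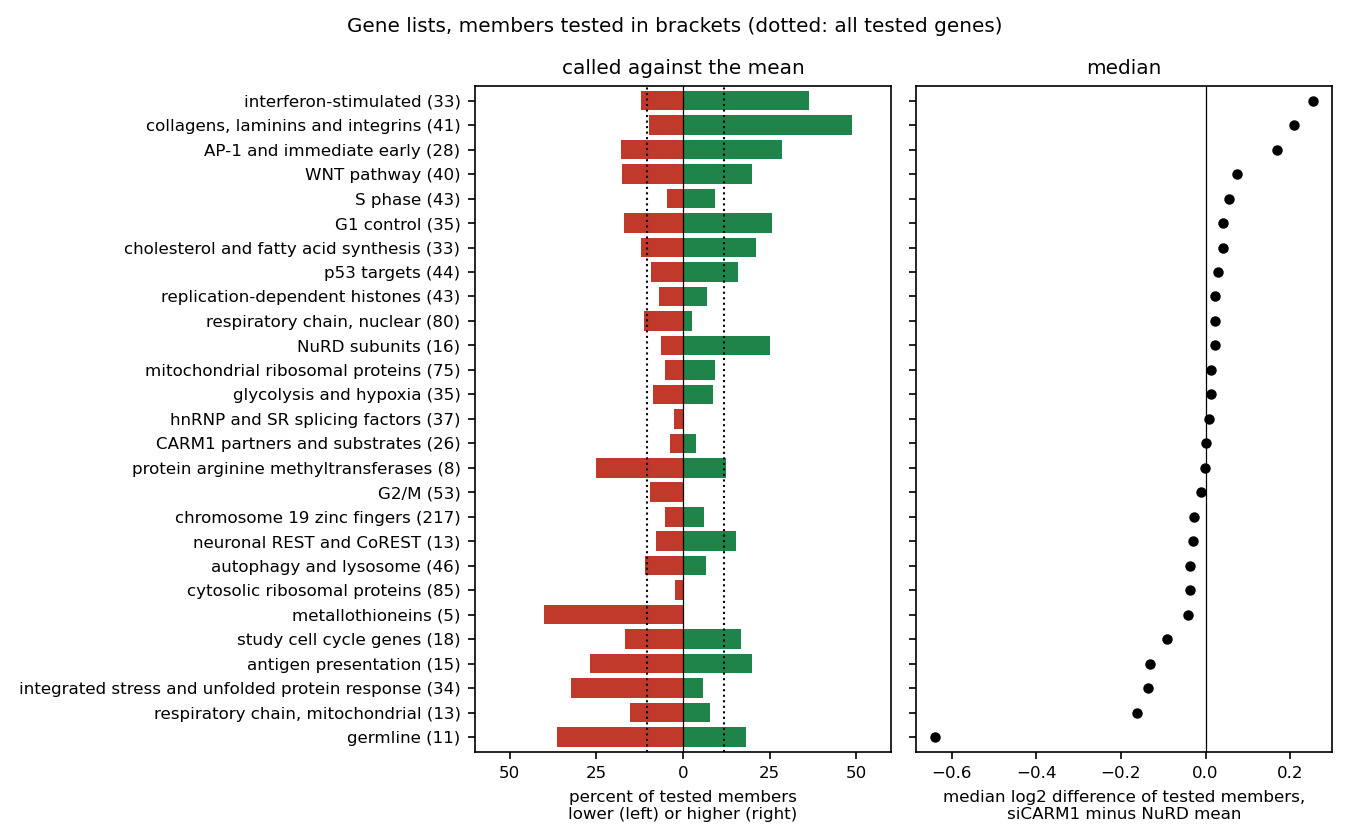
Left, percent of the tested members of 27 gene lists called lower (red) or higher (green) in siCARM1 than the NuRD mean, with dotted lines at 10.3% and 11.7% for all tested genes. Right, median log2 difference of each list, from -0.64 for germline genes to 0.25 for interferon-stimulated genes.

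Single members of other lists differed from each knockdown. RPL22, a protein of the large ribosomal subunit, was at 51.6 and 52.5 CPM against 80.8 to 119 CPM (log2 difference -0.84, SE 0.044, adjusted p = 3.19e-15), whereas of 85 cytosolic ribosomal protein genes only RPL22 and RPL3L were called. NEU1, the lysosomal sialidase, was at 81.1 and 77.7 CPM against 127 to 145 CPM, with siCTL at 171 and 175 CPM (log2 difference -0.80, SE 0.040, adjusted p = 1.12e-15). Of the 46 autophagy and lysosome genes, 5 (10.9%) were lower and 3 (6.52%) higher than the mean, against 10.3% and 11.7% of all tested genes. NDUFC2, a subunit of respiratory complex I with 18.6% of its exonic bases shared, was at 12.7 and 13.8 CPM against 17.3 to 25.8 CPM (log2 difference -0.71, SE 0.071, adjusted p = 2.55e-09). MT-ND3, another complex I subunit encoded in mitochondrial DNA, was higher than in each (0.46, SE 0.077, adjusted p = 1.60e-05). It went against its list. Of 13 tested respiratory chain genes of mitochondrial DNA, 11 had a negative difference, against 6185 of all 12805 tested genes, and the median was -0.16. Of the 13, 2 (15.4%, against 10.3%) were lower and 1 (7.69%, against 11.7%) higher than the mean. With loess offsets for GC content, 0 of them were called higher than in each.

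Further single members were DNM1, the neuronal dynamin, at 64.0 and 60.4 CPM against 23.9 to 42.9 CPM, and TM7SF2, a sterol reductase of cholesterol synthesis, at 93.5 and 82.3 CPM against 37.4 to 72.1 CPM. In the WNT pathway, 7 of 40 tested genes (17.5%, against 10.3% of all tested genes) were lower and 8 (20%, against 11.7%) higher than the mean. SP5, a WNT-responsive factor, was higher than in each (2.5%, against 1.25%), at 2.94 and 2.65 CPM against 1.24 to 1.93 CPM (0.92, SE 0.181). Its siCTL libraries, at 3.91 and 3.55 CPM, lay above siCARM1. The feedback inhibitors NKD1 (-0.68, SE 0.110) and RNF43 (-0.51, SE 0.109) were lower than in each (5%, against 1.91%). RNF43 shares 68.4% of its exonic bases with other genes. Of 43 histone genes, only H4C1 (0.74, SE 0.064) stood apart (2.33%, against 1.25% of all tested genes higher than in each). Of 217 chromosome 19 zinc finger genes, only ZNF14 (0.38, SE 0.082) did so (0.461%). With loess offsets for GC content, 10 of the 43 histone genes were higher than the mean, against 3 without them. The zinc finger genes lower than the mean were then 24 of 217, against 11, with 2 lower and 0 higher than in each. Of all 12805 tested genes, these offsets gave 1182 lower and 1456 higher than the mean, and 255 lower and 169 higher than each. Without siCHD4, 8 zinc finger genes were lower and 1 higher than in each remaining NuRD knockdown. For all 12805 tested genes these numbers were 401 and 302. Among 37 hnRNP and SR splicing factors 1 was called, lower than the mean (2.7%, against 10.3% of all tested genes).

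Among 16 tested NuRD subunits, 1 (6.25%, against 10.3% of all tested genes) was lower than the mean and 4 (25%, against 11.7%) were higher. Of these 4, 2 were the targeted HDAC2 and KDM1A, whose own knockdowns entered the mean. By edgeR or DESeq2, 0 were apart from each knockdown. At an unadjusted p under 0.05 in all 4 contrasts, 1 was lower and 1 higher. GATAD2B, the paralogue of GATAD2A, was at 82.3 and 78.8 CPM against 94.2 to 119 CPM (log2 difference -0.33, SE 0.040, adjusted p = 1.04e-07), and RBBP7, a histone-binding subunit, at 231 and 240 CPM against 134 to 202 CPM (0.43, SE 0.033, adjusted p = 1.60e-11). GATAD2A itself was at 173 and 150 CPM in siCARM1 and at 348 and 344 CPM in siCHD4. Of the other arginine methyltransferases, PRMT2 (-0.31, SE 0.057) was lower and PRMT3 (0.32, SE 0.045) higher than the mean, without holding against each.

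GC content moved with the comparison. The Pearson correlation of the log2 difference with the GC content of the exons was -0.212 across 12805 genes, which are not independent replicates and share the same libraries. When the genes were divided by GC content into 4 groups of equal size, the median difference was 0.082 in the group of lowest GC content and -0.080 in that of highest. With loess offsets for GC content, 255 genes were lower and 169 higher than in each knockdown, and 199 of the 245 and 127 of the 160 were called again. CDK4, E2F1 and CARM1 kept their calls.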

How the data were processed

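RNA-seq of 12 libraries of HEK293T cells was used, made with a directional kit and sequenced as read pairs, 10 of which entered the comparison. Raw counts per Ensembl gene were deposited by the authors, not normalized, in 3 columns (both strands together, forward, reverse). The submitters' processing notes name hg19, CASAVA 1.4 and STAR 2.7.10, and the annotation is not given in the sources used here. Their counts keep pairs that map uniquely to the exons of 1 gene, so genes with near-identical copies lose pairs. Multimapping pairs were 5.44% to 9.19% of the fragments in the 10 libraries.

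The reverse-strand counts were joined on Ensembl identifiers with GENCODE 44 lifted to GRCh37 (58662 of 60660 rows, 96.7%). Unmatched identifiers held 1.75% to 2.35% of the counts. The test took in coding genes whose group mean passed an FPKM of 0.5 in 1 or more of the 5 groups. FPKM and CPM were computed here. edgeR 4.0.16 (R 4.3.3) fitted a quasi-likelihood model of 5 group means with TMM factors, and standard errors come from that model. The contrast was siCARM1 minus the equally weighted mean of the 4 NuRD groups, and the 4 pairwise contrasts of siCARM1 came from the same fit. Adjustment was by Benjamini-Hochberg over all tested genes within a contrast. The biological coefficient of variation was 3.49%. The steps were tested on simulated data. DESeq2 1.42.0 was an alternative, with the others given under the closing section. Motifs were searched on both strands.

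The members and lists were chosen with earlier results of these data known. Named genes are the 5 targeted genes, the 12 with the largest difference in each direction among genes apart from each NuRD knockdown with at least 50 counts on the higher side, the 18 cell cycle genes of the study, and up to 4 members a list that stand apart from each. Other names were chosen after their values were seen. A gene that this rule would name is not reported here.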

Additional observations from a re-analysis of the deposited data

How the results depend on the processing

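The counts were recomputed under 26 alternatives. Without a fold minimum, 2930 genes were lower and 3208 higher than the mean, and 539 lower and 429 higher than each knockdown. glmTreat, which tests against a fold of 1.2, gave 565 and 633 against the mean and 80 and 22 against each. Dropping a NuRD group leaves 3 contrasts to pass, and the numbers lower and higher than each were then 401 and 302 without siCHD4, 376 and 329 without siHDAC2, 326 and 208 without siGATAD2A, and 326 and 317 without siKDM1A. With 1 library left out in turn, the lone sample was assumed to vary like the other groups, and the genes lower than the mean numbered 1110 to 1452, higher than the mean 1404 to 1564, lower than each 197 to 305 and higher than each 141 to 206. DESeq2 gave 215 lower and 126 higher than each. Of the 245 and 160 genes, 209 and 114 remained called without siCARM1 replicate 1, and 177 and 111 without siCARM1 replicate 2.

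The replicate numbers do not pair the samples: same-numbered libraries deviated together with correlations between -0.145 and 0.136 over 10 pairs of groups, and 1 was over 0.1. With the replicate number as a block, 1321 genes were lower and 1490 higher than the mean, and 250 lower and 159 higher than each.

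The log2 differences of the 87 named genes from the NuRD mean gave 2256 values under the alternatives, of which 2199 kept direction and side of the threshold. This count leaves out the calls against each knockdown. With loess offsets for GC content, UBE2C, MT-ND3 and ZNF14 were no longer called against each. GATAD2A reversed without siGATAD2A, at -0.48. FLRT1 and FSCN2 lost their calls with counts taken without regard to strand (-0.093 and 0.31). CDK4 lay between -0.52 and -0.46, with a highest adjusted p of 3.52e-07, in glmTreat, and E2F1 between -0.77 and -0.53. The 2 siCARM1 libraries differed from each other more than those of the other 4 groups, at 4.97 times the counting variance per gene against 1.77 to 3.16, and 2 libraries a group limit the precision.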

Other observations

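With every biotype that passed filterByExpr in the fit, 3746 long non-coding genes were tested and 22 were lower (0.587%) and 6 higher (0.16%) in siCARM1 than in each NuRD knockdown, against 1.28% and 0.966% of every gene in that fit. Of these, 18 and 5 had at least 50 counts on the higher side, and the following were chosen after their values were seen. LCAL1 was at 0.828 and 0.404 CPM in siCARM1, at 10.5 and 10.6 CPM in siCHD4, at 6.11 and 5.91 CPM in siGATAD2A and at 1.21 to 1.43 CPM in siHDAC2 and siKDM1A (log2 difference -2.34, SE 0.226, edgeR adjusted p = 1.01e-10). TEDC2-AS1, an antisense gene, was at 9.47 and 10.7 CPM in siCARM1 against 4.16 to 8.004 CPM (log2 difference 0.76, SE 0.097, adjusted p = 5.61e-08), and PLXNB3-AS1 at 3.53 and 3.28 CPM against 0.963 to 2.41 CPM (log2 difference 1.29, SE 0.185, adjusted p = 5.43e-07). Neither was tested for counts from its sense partner.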
